A study of Mus musculus with 18 samples.

Results

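The comparison described here asks what a Wnt surrogate and R-spondin 2 did to gene expression in mouse mammary organoids that lack RasGRP1 and already received EGF. It sets the 3 knockout libraries in medium with all 3 factors (KO EGF-WR) against the 3 knockout libraries in medium with EGF alone (KO EGF), 6 of the 18 libraries of the series. These members were taken by genotype and medium from the labels, and 17092 of 55536 genes had enough counts to be tested. Organoids are clusters of epithelial cells grown in matrigel, a basement membrane gel; here they were made from mammary glands of C57BL/6 mice aged 6 to 7 weeks. KO EGF-WR organoids were RasGRP1-/- and were kept for 5 days with EGF at 2.5 nM, with Rspo2 at 8.3 nM and with NGS-Wnt, a surrogate that engages Wnt receptors, at 0.1 nM. KO EGF organoids were RasGRP1-/- and had EGF alone at 2.5 nM for the same 5 days. The same 2 media on wild-type C57BL/6 organoids (WT EGF-WR and WT EGF, 3 libraries each) served for comparison. All groups shared the base medium with insulin, transferrin and selenium. The number at the end of a library's name is its batch, each batch holds 1 library of every group, and values below are given in the order batch 1, 2, 3. Whether a batch stands for 1 mouse, pooled mice or a preparation day, and which exons the RasGRP1 allele lacks, is not given in the sources used here.

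Wnt ligands bind Frizzled and LRP receptors and stabilise beta-catenin, which enters the nucleus and, with TCF/LEF factors, switches on target genes, several of which are inhibitors that feed back on the pathway. R-spondins bind LGR receptors and keep Frizzled at the cell surface by removing the ubiquitin ligases RNF43 and ZNRF3. In the mammary gland Wnt signals are known for their action on basal cells and on cells that can rebuild the ductal tree. EGF acts through its receptor on Ras and the kinase ERK, and RasGRP1 is a guanine nucleotide exchange factor that loads Ras with GTP.

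The 6 libraries held 24290097 to 30781440 counts, and mitochondrial genes took 1.28% to 2.22% of them. Rasgrp1 (chromosome 2, 117279993 to 117343001, GRCm38) had 0, 0 and 6 counts in KO EGF-WR and 0, 6 and 4 counts in KO EGF. It stood at 0.224, 0.197 and 0.6499 CPM in WT EGF-WR, against 0.501, 0.526 and 0.688 CPM in WT EGF, so the gene was close to the detection limit in both genotypes and checks the labels only weakly. Its difference between the KO media was not called (log2 -1.37 ± 1.37 SE, edgeR adjusted p = 0.591). Basal and luminal epithelial markers summed to 7514 to 9949 and 6806 to 7860 CPM (counts scaled to library size) in KO EGF-WR, against 8069 to 9390 and 5443 to 8355 CPM in KO EGF; both sets were present in all 6 libraries. Markers of other cells were present too and are given with the matrix genes below.

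Adding the Wnt surrogate and R-spondin 2 changed 1991 of 17092 genes in KO organoids at an edgeR quasi-likelihood adjusted p under 0.05, which is 11.6% of the genes tested. Of these, 884 were higher in KO EGF-WR (5.17%) and 1107 were lower (6.48%), and the median log2 fold change of all tested genes was 0.0037. Most changes were small: the median size among called genes was 0.59 on the log2 scale, and 149 genes rose and 373 fell at least 2-fold. The test takes the batch as a block, because libraries of 1 batch deviated together from their group means (Pearson r 0.443, 0.345 and 0.352 in batches 1, 2 and 3). The number of calls rests on that block and on few libraries. Without the block 115 genes were called, all of them among the 1991. Leaving out KO EGF-WR 3 left 978 calls, KO EGF 3 left 922 and KO EGF 2 left 1316, while dropping a whole batch left 1060 without batch 1, 1313 without batch 2 and 366 without batch 3. With each of the 6 libraries left out in turn, 681 of the 1991 genes kept their call every time, and most gene lists below are given with that count. For 3 libraries against 3, the smallest two-sided p of an exact permutation is 0.1. Groups without overlap are therefore only described below, and their share over all genes is not given. RNA came from whole organoids, so that fewer cells of a type and less RNA per cell cannot be told apart in any result that follows.

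**Figure D1:**
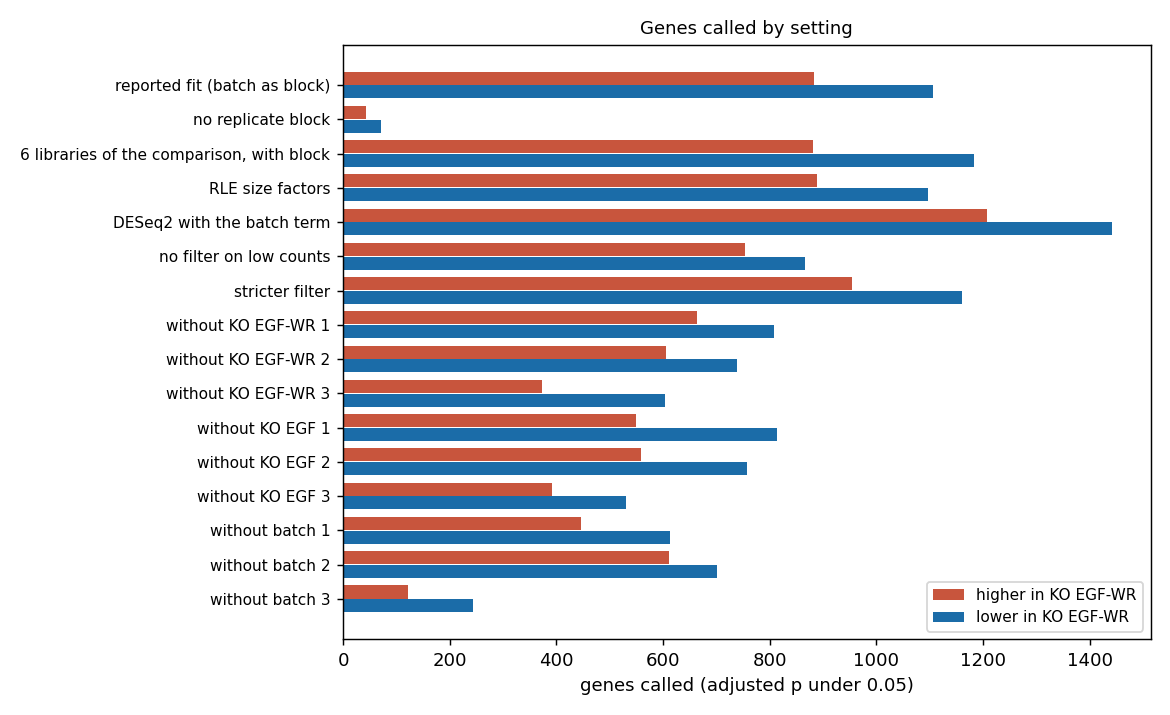
Number of genes called higher (red) and lower (blue) in KO EGF-WR than in KO EGF, on the x axis, under each setting on the y axis. The reported fit calls 884 and 1107 genes, the fit without the batch block 44 and 71, and the fit without batch 3 122 and 244.

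Feedback inhibitors of the Wnt pathway split into a group that rose and a group that fell. Axin2, the scaffold of the beta-catenin destruction complex and the most used readout of the pathway (chromosome 11, 108920349 to 108950783), had 5.71, 37.6 and 35.04 CPM in KO EGF-WR, against 1.73, 9.44 and 6.91 CPM in KO EGF. It rose 4.12-fold (log2 2.04 ± 0.40 SE, adjusted p = 0.00698) and was higher in all 3 pairs of a batch, although the EGF-WR library of batch 1 lay within the range of the EGF libraries. Wif1, a secreted protein that binds Wnt ligands, had 157, 132 and 179 CPM in KO EGF-WR, against 43, 49.4 and 45.8 CPM in KO EGF. Every KO EGF-WR library stood above every KO EGF library for Wif1 (log2 1.74 ± 0.18 SE, adjusted p = 0.00012). Sostdc1, a secreted inhibitor of Wnt and BMP signals, rose as well, with 78.4, 169 and 206 CPM in KO EGF-WR, against 41.6, 52.3 and 60.4 CPM in KO EGF (log2 1.52 ± 0.31 SE, adjusted p = 0.0101 and up to 0.0537 with 1 library left out). Tnfrsf19 (Troy), a receptor known as a Wnt target in intestinal stem cells, rose from a very low level, with 0.619, 2.06 and 3.78 CPM in KO EGF-WR, against 0, 0.343 and 0.378 CPM in KO EGF (log2 3.10 ± 0.55 SE, adjusted p = 0.0019).

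The inhibitors that fell were Sfrp1 and Dkk3, both secreted. Sfrp1, a soluble Frizzled-like protein, had 186, 129 and 93.99 CPM in KO EGF-WR, against 298, 245 and 344 CPM in KO EGF. Dkk3, a divergent member of the Dickkopf family, had 26.2, 23.4 and 19.99 CPM in KO EGF-WR, against 40.1, 34.4 and 35.9 CPM in KO EGF. Both were lower in every KO EGF-WR library than in any KO EGF library (log2 -1.17 ± 0.22 and -0.67 ± 0.12 SE, adjusted p = 0.00556 and 0.00221). Of 19 tested members of the list, 4 rose, 2 fell and 13 were not called, with a median log2 of -0.03; 5 of the 6 calls held with each library left out. Notum, a carboxylesterase that inactivates Wnt ligands, stood at 0.9097, 1.66 and 0.6904 CPM in KO EGF-WR, against 0.124, 0.644 and 0.138 CPM in KO EGF and missed the threshold (log2 1.94 ± 0.65 SE, adjusted p = 0.0641). Rnf43 stood at log2 0.52 ± 0.19 SE with an adjusted p of 0.101.

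Target genes of beta-catenin likewise moved in both directions. Of 26 tested, 5 rose and 7 fell (median log2 0.02), and 7 of the 12 calls held with each library left out. Ccnd1, the gene of cyclin D1 that drives entry into the cell cycle, had 469.7, 521 and 653 CPM in KO EGF-WR, against 255, 309.5 and 377 CPM in KO EGF. It was among the best supported increases (log2 0.81 ± 0.09 SE, adjusted p = 6.11e-05), with no overlap between the media. Myc, the growth-promoting transcription factor, had 197, 156 and 294 CPM in KO EGF-WR, against 128, 84.2 and 149 CPM in KO EGF (log2 0.82 ± 0.20 SE, adjusted p = 0.0226 and up to 0.11 with 1 library left out). Runx3, a Runt family transcription factor, had 5.57, 15.3 and 5.66 CPM in KO EGF-WR, against 0.741, 3.09 and 2.13 CPM in KO EGF, again without overlap (log2 2.07 ± 0.41 SE, adjusted p = 0.00519).

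Lef1, the TCF/LEF family member whose own gene is a classical target (chromosome 3, 131110471 to 131224356), went the other way. It had 3.49, 0 and 0.493 CPM in KO EGF-WR, against 16.9, 1.202 and 3.75 CPM in KO EGF, lower in all 3 pairs although the groups overlapped (log2 -2.78 ± 0.71 SE, adjusted p = 0.0212 and up to 0.11 with 1 library left out). Wisp1, a matricellular protein, fell with 6.73, 3.21 and 6.31 CPM in KO EGF-WR, against 20.1, 10.8 and 12.5 CPM in KO EGF (log2 -1.40 ± 0.31 SE, adjusted p = 0.00786). Lower, too, were Twist1 (log2 -1.56 ± 0.39), the matrix proteoglycan gene Vcan (-0.84 ± 0.17), the adhesion molecule genes Nrcam (-1.51 ± 0.35) and Cd44 (-0.40 ± 0.10) and the R-spondin receptor gene Lgr6 (-0.48 ± 0.10). Markers of stroma were lower as well: the summed level of 16 fibroblast markers in KO EGF-WR was 0.532, 0.773 and 0.541 times that in KO EGF in batches 1, 2 and 3. Their part in these falls, and in those of Sfrp1 and Dkk3, was not tested. Lgr5, the R-spondin receptor that marks stem cells in several epithelia, stood at 91.7, 83.8 and 64.3 CPM in KO EGF-WR, against 98.6, 73.7 and 84.3 CPM in KO EGF, with overlapping groups and no call (log2 -0.09 ± 0.14 SE, adjusted p = 0.759). Ascl2, a target in intestinal stem cells, was under 1 CPM in all 6 libraries and not called (log2 2.89 ± 1.24 SE, adjusted p = 0.148).

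**Figure D2:**
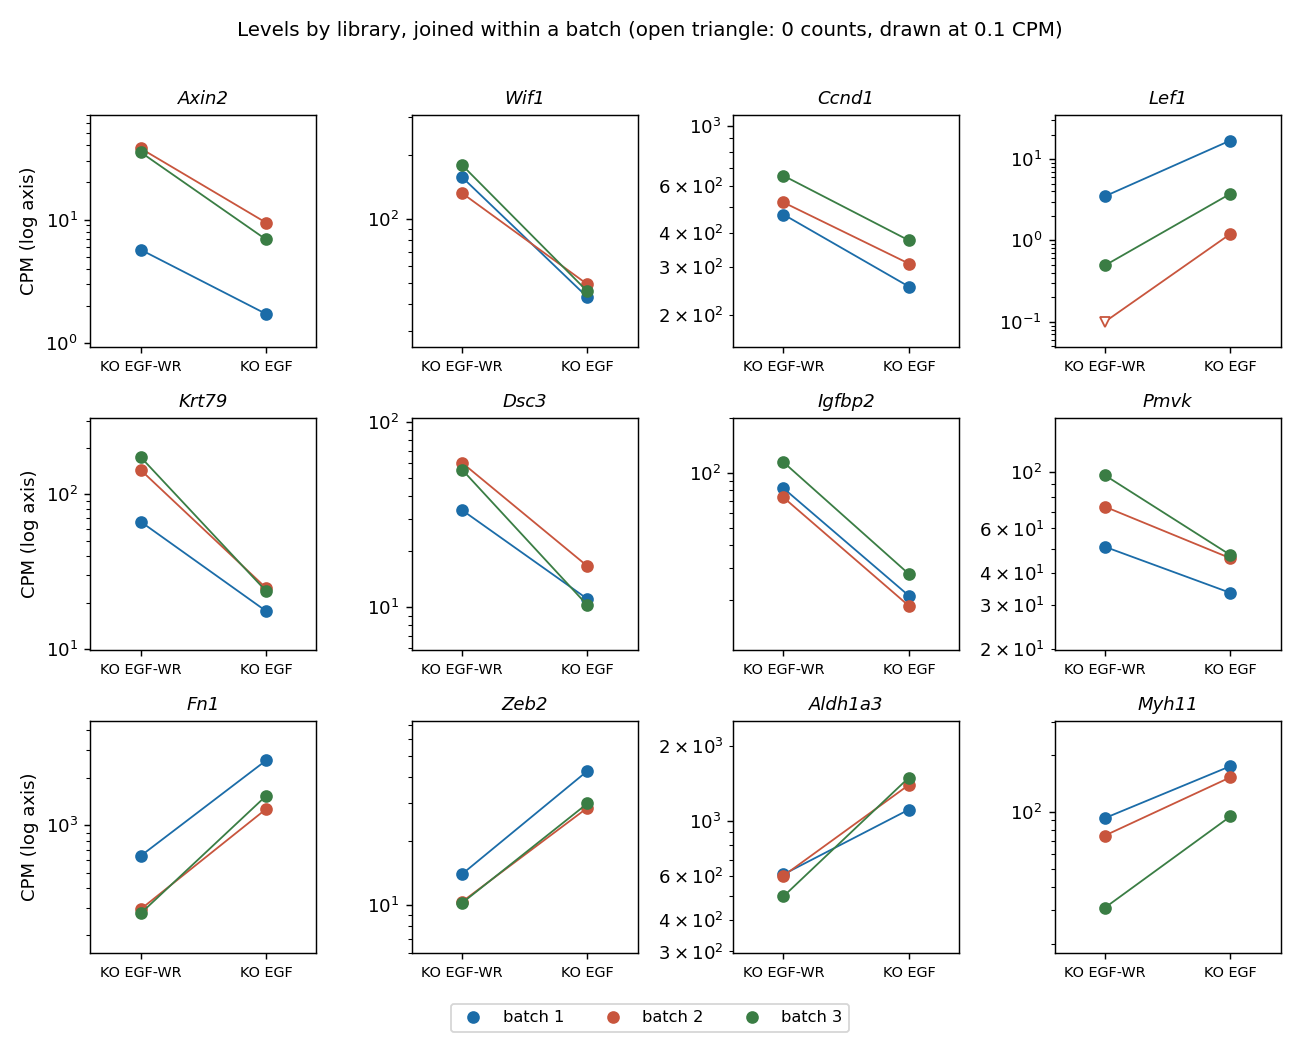
Levels of 12 genes in CPM on a log axis in KO EGF-WR (left) and KO EGF (right), 1 point per library, joined within a batch. Axin2, Wif1, Ccnd1, Krt79, Dsc3, Igfbp2 and Pmvk stand higher in KO EGF-WR in all 3 batches, and Lef1, Fn1, Zeb2, Aldh1a3 and Myh11 stand lower; for Axin2 and Lef1 the media overlap across batches.

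Genes for the pathway's own ligands and receptors mostly fell where they were called. Of 14 tested genes for ligands, R-spondins and ligand secretion, 1 rose and 2 fell. Wnt6 was at a trace level in both media, with 0.764, 0.5901 and 1.87 CPM in KO EGF-WR, against 0.124, 0.429 and 0.172 CPM in KO EGF (log2 2.16 ± 0.54 SE, adjusted p = 0.0147 and up to 0.107 with 1 library left out). Wnt9a fell (log2 -1.29 ± 0.32 SE, adjusted p = 0.0139 and up to 0.0654 with 1 library left out). Wls, the carrier that brings Wnt proteins to the cell surface, fell too, with 118, 125 and 117 CPM in KO EGF-WR, against 144, 155 and 147 CPM in KO EGF (log2 -0.31 ± 0.07 SE, adjusted p = 0.00697). Of the 3 calls, 1 held with each library left out, and the list's median log2 was -0.17.

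Of 18 receptor genes, 0 rose and 4 fell, with a median log2 of -0.18. Fzd4, a Frizzled receptor, had 17.4, 16.2 and 14.8 CPM in KO EGF-WR, against 45.97, 41.9 and 26.1 CPM in KO EGF (log2 -1.17 ± 0.24 SE, adjusted p = 0.00657). The co-receptor genes Lrp5 (log2 -0.24 ± 0.07) and Lrp6 (-0.34 ± 0.09) fell slightly, their calls lost with 5 and 2 of the 6 libraries left out. Lgr6 had 399, 291 and 308 CPM in KO EGF-WR, against 494, 422 and 477 CPM in KO EGF. The calls of Fzd4 and Lgr6 held with each library left out. Lgr4, another R-spondin receptor, stood at log2 -0.35 ± 0.11 SE and just missed the threshold (adjusted p = 0.0515). Among 22 transducers and TCF/LEF factors, Lef1 fell and the co-repressor gene Tle3 rose (log2 0.26 ± 0.07 SE, adjusted p = 0.0271 and up to 0.127 with 1 library left out), neither call held with each library left out, and the median log2 was -0.05. Such a share of called members is near the 11.6% called over all genes. Tcf7, another TCF factor often named as a target, stood at log2 0.18 ± 0.22 SE (adjusted p = 0.676).

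The ERK pathway, which EGF drives in both media, was tested to see whether the added factors moved it. Of 28 ERK-responsive genes 2 rose, Ccnd1 and Myc, which also stand on the Wnt list, and 2 fell, a share of the list near the 11.6% called over all genes. With the 6 libraries of the contrast fitted alone, 8 ERK-responsive genes were called lower and 2 higher. The ETS factor gene Etv1 had 13.5, 12.6 and 14.1 CPM in KO EGF-WR, against 26.1, 18.1 and 18.5 CPM in KO EGF (log2 -0.62 ± 0.17 SE, adjusted p = 0.025 and up to 0.127 with 1 library left out). Spry4, a feedback inhibitor of receptor tyrosine kinases, had 20.7, 18.9 and 11.2 CPM in KO EGF-WR, against 42.7, 26.1 and 16.6 CPM in KO EGF (log2 -0.71 ± 0.17 SE, adjusted p = 0.0123 and up to 0.088 with 1 library left out). The median log2 of the list was -0.19, and only the call of Ccnd1 held with each library left out. Dusp6, the ERK phosphatase, varied more between batches than between media, with 189.6, 452 and 204 CPM in KO EGF-WR, against 307, 649 and 288 CPM in KO EGF (log2 -0.57 ± 0.48 SE, adjusted p = 0.518). Etv5 stood at log2 0.14 ± 0.23 SE (adjusted p = 0.77).

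In the EGF receptor family, 1 of 21 tested genes rose and 2 fell, by small amounts, and none of the 3 calls held with each library left out. This share is near the 11.6% called over all genes, and with the 6 libraries of the contrast fitted alone 5 members were called lower and 1 higher. Egfr, the receptor itself, had 134, 154 and 110.4 CPM in KO EGF-WR, against 158, 201 and 152 CPM in KO EGF (log2 -0.36 ± 0.10 SE, adjusted p = 0.0286 and up to 0.157 with 1 library left out). Lrig1, which brings EGF receptors to degradation and marks quiescent epithelial progenitors, had 229, 343 and 255 CPM in KO EGF-WR, against 324, 537 and 485 CPM in KO EGF (log2 -0.70 ± 0.16 SE, adjusted p = 0.0144 and up to 0.0797 with 1 library left out). Erbb3, a receptor partner in the family, was higher (log2 0.28 ± 0.08 SE, adjusted p = 0.0288 and up to 0.176 with 1 library left out). Among 17 Ras genes, exchange factors and GTPase-activating proteins (GAPs), 3 GAP genes fell: Rasa1 (log2 -0.32 ± 0.07), Rasa3 (-0.55 ± 0.12) and Rasa4, which had 8.92, 5.02 and 3.65 CPM in KO EGF-WR, against 13.3, 10.7 and 13.4 CPM in KO EGF. Hras (0.29 ± 0.09) and Nras (0.23 ± 0.07) rose slightly, and their calls were lost with any of the 6 libraries left out. The calls of Rasa3 and Rasa4 held with each library left out, and that of Rasa1 was lost without KO EGF 1 (edgeR adjusted p up to 0.0527). The medians of the EGF receptor and Ras lists were -0.14 and -0.27.

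The basal layer of the mammary epithelium showed a division between keratins and contractile genes. Krt5, a keratin of basal cells, had 1392, 2189 and 2432 CPM in KO EGF-WR, against 1098, 1399 and 1373 CPM in KO EGF. It rose in all 3 pairs, and the groups overlapped by 1 library (log2 0.62 ± 0.17 SE, adjusted p = 0.0281 and up to 0.145 with 1 library left out). Krt17, a keratin of basal and stressed epithelium, rose with 165, 606 and 312 CPM in KO EGF-WR, against 58.9, 299 and 77.5 CPM in KO EGF (log2 1.45 ± 0.30 SE, adjusted p = 0.0115 and up to 0.0582 with 1 library left out). Its batches differed as widely as its media. Krt14, the partner of Krt5, stood at log2 0.29 ± 0.11 SE and was not called (adjusted p = 0.106). Igfbp2, an insulin-like growth factor binding protein, had 82.3, 73.2 and 114 CPM in KO EGF-WR, against 21.2, 18.7 and 27.9 CPM in KO EGF, so that each KO EGF-WR library stood well above the KO EGF libraries (log2 1.99 ± 0.18 SE, adjusted p = 3.41e-05).

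The contractile genes of myoepithelial cells, which squeeze milk from the alveoli, fell where they were called. Myh11, smooth muscle myosin, had 92.6, 74.8 and 30.97 CPM in KO EGF-WR, against 175, 152 and 94.4 CPM in KO EGF (log2 -1.15 ± 0.24 SE, adjusted p = 0.00902), without overlap. Acta2, smooth muscle actin, had 529.9, 545 and 293 CPM in KO EGF-WR, against 743, 828 and 651 CPM in KO EGF (log2 -0.72 ± 0.18 SE, adjusted p = 0.019 and up to 0.0712 with 1 library left out). Tagln, transgelin, fell by 1.11 on the log2 scale (± 0.27 SE) and Mylk by 0.80 (± 0.16 SE). Oxtr, the oxytocin receptor, was not called (log2 -0.36 ± 0.25 SE, adjusted p = 0.416). Over the 20 basal and myoepithelial markers, 4 rose and 7 fell (median log2 -0.06), and 6 of the 11 calls held with each library left out. Fibroblasts and vessel wall cells share the contractile genes, and the part of the fibroblast markers given below in these falls was not tested.

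Luminal genes were mostly level. Of 15 luminal markers only Ehf, an epithelial ETS factor, was called; it had 528, 504 and 624 CPM in KO EGF-WR, against 299, 408 and 379 CPM in KO EGF (log2 0.61 ± 0.11 SE, adjusted p = 0.00268), and the median log2 was 0.12. Krt8, a luminal keratin, had 742, 969.7 and 847 CPM in KO EGF-WR, against 530.3, 1082 and 796 CPM in KO EGF, a difference smaller than that between batches (log2 0.12 ± 0.13 SE, adjusted p = 0.607). The calls among luminal progenitor and alveolar markers divided evenly, with 3 rising and 3 falling of 15 (median log2 -0.09, 5 of 6 calls held with each library left out). Their summed level was 11000, 9910 and 11160 CPM in KO EGF-WR, against 11660, 13630 and 14330 CPM in KO EGF, without overlap. Aldh1a3, a retinaldehyde dehydrogenase that marks luminal progenitors, had 611, 603 and 499 CPM in KO EGF-WR, against 1110, 1394 and 1491 CPM in KO EGF, without overlap (log2 -1.23 ± 0.17 SE, adjusted p = 0.000838). Mfge8, a milk fat globule protein, had 1572, 1342 and 1327 CPM in KO EGF-WR, against 2169, 2518 and 2695 CPM in KO EGF (log2 -0.79 ± 0.13 SE, adjusted p = 0.00194), and Cd14 fell by 0.53 on the log2 scale (± 0.11 SE).

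The progenitor genes that rose were Ltf, the iron-binding lactoferrin, Elf5, the factor of alveolar fate, and Plb1. Ltf had 77.5, 101 and 116 CPM in KO EGF-WR, against 31.7, 54.9 and 75.1 CPM in KO EGF (log2 0.93 ± 0.13 SE, adjusted p = 0.000391). Elf5 had 402, 386 and 451 CPM in KO EGF-WR, against 239.7, 375 and 320.3 CPM in KO EGF (log2 0.42 ± 0.12 SE, adjusted p = 0.0282 and up to 0.145 with 1 library left out). Of 13 milk genes, Xdh (log2 0.48 ± 0.10), needed for milk fat secretion, and Wap rose and Mfge8 fell (median log2 -0.20). Of these 3 calls, 2 held with each library left out. Wap held 44 counts over the KO EGF-WR libraries against 3 over the KO EGF libraries, a ratio of 13.2 with an exact 95% counting interval of 4.24 to 66.6, and its call was lost with 5 of the 6 libraries left out (adjusted p = 0.0359).

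Hormone-sensing luminal genes were lower where called, apart from Ly6a. The estrogen receptor gene Esr1 had 15.9, 9.81 and 12.1 CPM in KO EGF-WR, against 22.9, 21.8 and 28.4 CPM in KO EGF (log2 -0.97 ± 0.18 SE, adjusted p = 0.00275). The progesterone receptor gene Pgr had 33.04, 16.5 and 24.8 CPM in KO EGF-WR, against 52.9, 27.8 and 44.3 CPM in KO EGF (log2 -0.75 ± 0.13 SE, adjusted p = 0.00199), with the groups overlapping by 1 library. The estrogen-induced gene Greb1 had 11.7, 7.41 and 6.97 CPM in KO EGF-WR, against 17.5, 20.2 and 21.6 CPM in KO EGF (log2 -1.22 ± 0.23 SE, adjusted p = 0.00296). Of 13 tested, 1 rose and 3 fell (median log2 -0.33), the 3 falls holding with each library left out; with the 6 libraries of the contrast fitted alone 6 fell. Ly6a (Sca-1), a surface marker used to sort these cells, rose (log2 1.27 ± 0.31 SE, adjusted p = 0.0193 and up to 0.109 with 1 library left out). Areg, an EGF receptor ligand, and Prlr, the prolactin receptor, were not called (log2 -0.66 ± 0.29 and -0.33 ± 0.13 SE, adjusted p = 0.17 and 0.128).

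Genes proposed as mammary stem cell markers did not move as a block. Of 18 tested, 2 rose (Axin2 and Bcl11b) and 6 fell, with a median log2 of -0.06, and 3 of 8 calls held with each library left out. Bcl11b, a zinc finger factor of basal stem cells, had 38.4, 71.5 and 40.8 CPM in KO EGF-WR, against 24.7, 29.1 and 21.3 CPM in KO EGF (log2 0.96 ± 0.23 SE, adjusted p = 0.0169 and up to 0.0852 with 1 library left out). Tspan8, a tetraspanin, had 214, 117 and 160.1 CPM in KO EGF-WR, against 279, 223 and 274 CPM in KO EGF (log2 -0.69 ± 0.19 SE, adjusted p = 0.03 and up to 0.129 with 1 library left out). Itgb3, integrin beta 3, had 245, 92.7 and 65.7 CPM in KO EGF-WR, against 312, 276 and 238 CPM in KO EGF (log2 -1.22 ± 0.34 SE, adjusted p = 0.0419 and up to 0.174 with 1 library left out). Cdh5 and Nrp1 fell as well (log2 -1.03 ± 0.30 and -1.06 ± 0.24), and both are also expressed by endothelial cells. The summed endothelial markers in KO EGF-WR were 0.437, 0.703 and 0.563 times those in KO EGF in batches 1, 2 and 3. Their part in both falls was not tested.

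Genes of stratified, cornifying epithelium had the highest median of the 38 lists. Among 34 cornified envelope and suprabasal genes, 11 rose, 1 fell and 22 were not called, with a median log2 of 1.18; 6 of the 12 calls held with each library left out. Dmkn, a secreted protein of the suprabasal epidermis, had 31.8, 64.1 and 82.3 CPM in KO EGF-WR, against 10.3, 13.7 and 7.63 CPM in KO EGF (log2 2.44 ± 0.37 SE, adjusted p = 0.00238). Krt6a, a keratin of stressed and follicular epithelium with a near-identical neighbour, Krt6b, that may share reads, had 85.7, 96.1 and 134 CPM in KO EGF-WR, against 19.4, 34.03 and 30.96 CPM in KO EGF (log2 1.93 ± 0.33 SE, adjusted p = 0.0039). Neither gene overlapped between media.

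Several members rose from almost nothing. Krtdap, a keratinocyte differentiation protein, had 1.601, 6.64 and 10.8 CPM in KO EGF-WR, against 0.124, 0 and 0.172 CPM in KO EGF (log2 5.79 ± 0.90 SE, adjusted p = 0.00194). Dsg1a, a desmosomal cadherin of the upper epidermis with near-identical copies, had 2.44, 2.43 and 5.56 CPM in KO EGF-WR, against 0, 0.258 and 0.275 CPM in KO EGF (log2 4.25 ± 0.52 SE, adjusted p = 0.000192). Pla2g2f, an epidermal phospholipase, had 54 counts over the KO EGF-WR libraries and none in KO EGF, at least 16.2-fold higher against a floor of 3 counts over the group. Calm4, a calmodulin-like skin protein, held 87 counts against 2 (ratio 39.2, exact 95% counting interval 10.5 to 329) and Cnfn, cornifelin, 32 against 1 (28.9, 4.82 to 1180). The call of Calm4 was lost with 1 of the 6 libraries left out and that of Cnfn with 4.

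Sprr1b was called higher as well, with 6, 64 and 104 counts in KO EGF-WR, against 0, 6 and 9 counts in KO EGF. Its call was lost with 2 of the 6 libraries left out. Krt1, Krt10 and Lor were not among the called genes. Krt1, the suprabasal keratin, had 1.601, 2.25 and 6.904 CPM in KO EGF-WR, against 0.247, 0 and 0.893 CPM in KO EGF and was not called (log2 3.20 ± 1.17 SE, adjusted p = 0.111). Krt10, its partner, had 7.53, 7.12 and 14.8 CPM in KO EGF-WR, against 3.29, 5.58 and 5.46 CPM in KO EGF (log2 1.03 ± 0.60 SE, adjusted p = 0.325). Neither gene overlapped between the media. Lor, loricrin, stood at log2 -1.05 ± 0.44 SE (adjusted p = 0.14). Krt4, a keratin of wet stratified epithelium, fell (log2 -1.06 ± 0.24 SE, adjusted p = 0.00882 and up to 0.0707 with 1 library left out). Krt79, a keratin of the hair follicle canal that is on no list (chromosome 15, 101929332 to 101940324), rose too, with 66.7, 144 and 174 CPM in KO EGF-WR, against 17.6, 24.9 and 23.8 CPM in KO EGF (log2 2.47 ± 0.41 SE, adjusted p = 0.00358).

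Junction genes divided between cell-cell and cell-matrix contacts. Of 27 hemidesmosome, laminin and desmosome genes, the 4 that rose were all desmosomal cadherins: Dsg1a, Dsg3, Dsc2 and Dsc3. Dsc3 had 33.4, 60.1 and 55.2 CPM in KO EGF-WR, against 11.1, 16.6 and 10.2 CPM in KO EGF (log2 1.96 ± 0.27 SE, adjusted p = 0.00102). Dsg3, the pemphigus antigen of basal keratinocytes, had 55.6, 147 and 125 CPM in KO EGF-WR, against 30.3, 60.3 and 37.5 CPM in KO EGF (log2 1.33 ± 0.28 SE, adjusted p = 0.0105 and up to 0.061 with 1 library left out). The 8 that fell were cell-matrix genes. The plakin gene Dst, which ties keratins to hemidesmosomes, had 221, 351 and 129.7 CPM in KO EGF-WR, against 478, 527 and 269 CPM in KO EGF (log2 -0.90 ± 0.15 SE, adjusted p = 0.00254). Integrin beta 1, Cd151 and the laminin chain genes Lama3, Lama5, Lamb1 and Lamc1 fell by 0.30 to 0.51 on the log2 scale. The median log2 of the list was -0.06, and 8 of 12 calls held with each library left out.

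Cell cycle genes had positive log2 values in 25 of 26 and 26 of 26 members of the lists for both phases, by small amounts. Of 26 G1/S and DNA replication genes 9 rose and 0 fell (median log2 0.41), and of 26 G2/M genes 11 rose and 0 fell (median 0.50), against a median of 0.0037 for all genes. Mcm6, a subunit of the replicative helicase, had 140, 199 and 239 CPM in KO EGF-WR, against 98.2, 125 and 160.5 CPM in KO EGF (log2 0.58 ± 0.11 SE, adjusted p = 0.00218). Uhrf1, which maintains DNA methylation at replication, had 60.99, 127 and 131 CPM in KO EGF-WR, against 42.7, 71.4 and 85.2 CPM in KO EGF (log2 0.66 ± 0.14 SE, adjusted p = 0.00664). Bub1b, a spindle checkpoint kinase, had 43.9, 58.3 and 90.2 CPM in KO EGF-WR, against 28.6, 35.9 and 43.99 CPM in KO EGF (log2 0.80 ± 0.17 SE, adjusted p = 0.00776). Hmgb2 rose too (log2 0.89 ± 0.18).

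These were the calls that held with each library left out, 2 of 9 in the first list and 2 of 11 in the second. Mki67, the proliferation marker, had 239.7, 405 and 315 CPM in KO EGF-WR, against 217, 233 and 209.9 CPM in KO EGF. Its groups did not overlap, but it just missed the threshold (log2 0.51 ± 0.16 SE, adjusted p = 0.0592), as did Top2a (log2 0.39 ± 0.13 SE, adjusted p = 0.0591). Of 10 CDK inhibitor and D cyclin genes, Ccnd1 and the inhibitor gene Cdkn1b rose and none fell (median log2 0.22). Cdkn1b had 117, 113 and 126 CPM in KO EGF-WR, against 90.2, 101 and 92.1 CPM in KO EGF (log2 0.33 ± 0.09 SE, adjusted p = 0.0178 and up to 0.11 with 1 library left out). Leaving out 1 library brought the number of calls to between 2 and 11 in the first list and between 2 and 6 in the second. The G2/M count moved both ways with other fits: 22 members were called higher with the 6 libraries of the contrast fitted alone and 18 with DESeq2, against 3 without batch 2 and 0 without batch 3 or without the block. In the G1/S list these fits called 11 members (6 libraries alone), 13 (DESeq2), 1 (without batch 2), 1 (without batch 3) and 0 (without the block), and leaving out batch 1 gave 15.

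Cholesterol synthesis was, of the 38 lists, the one with the largest share of called members. These enzymes turn acetyl-CoA into cholesterol by way of mevalonate and squalene, and the factor SREBP2, the product of Srebf2, controls most of them together. Of 22 tested, 18 rose, none fell and 4 were not called, with a median log2 of 0.55 and all 22 values above 0. Pmvk, phosphomevalonate kinase, had 50.8, 73.1 and 97.4 CPM in KO EGF-WR, against 33.4, 45.8 and 47.1 CPM in KO EGF (log2 0.78 ± 0.11 SE, adjusted p = 0.000372). Lss, lanosterol synthase, had 103, 189 and 182 CPM in KO EGF-WR, against 66.1, 124 and 96.7 CPM in KO EGF (log2 0.73 ± 0.13 SE, adjusted p = 0.00197). Cyp51, lanosterol demethylase, had 127, 382 and 283 CPM in KO EGF-WR, against 80.4, 257 and 157 CPM in KO EGF (log2 0.70 ± 0.13 SE, adjusted p = 0.00268).

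The groups of Lss and Cyp51 overlapped, batch 1 was low in both media, and the increase stood within each pair. Hmgcs1, a synthase early in the pathway, had 151, 359.8 and 342 CPM in KO EGF-WR, against 116, 258 and 174 CPM in KO EGF (log2 0.64 ± 0.19 SE, adjusted p = 0.0453 and up to 0.208 with 1 library left out). Dhcr7, the last enzyme of one branch, rose with a small error (log2 0.57 ± 0.08 SE, adjusted p = 0.000536). Sc5d (log2 0.28 ± 0.13 SE, adjusted p = 0.182) and Insig1 (log2 0.49 ± 0.28 SE, adjusted p = 0.309) were among those not called. The calls of 7 of the 18 held with each library left out, the number of calls ranged from 7 to 15 over these 6 settings, none of the 18 was called without the block, and 3 were called without batch 3.

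Because these genes moved together, promoters of 4 of them that rose are shown with that of Tnfrsf19, as RefSeq gives them on GRCm38.p6, in each case the 250 bases before the start of the gene, read in its direction. Capitals mark the CCAAT box, the letters CCAAT read on either strand (as ATTGG on the other), in the 4 enzymes; in Hmgcs1 they also mark CACCCCAC, a core of the sterol element. In Tnfrsf19 they mark CTTTGAT, a TCF/LEF motif, here on the other strand as ATCAAAG. No marked letters overlap. RefSeq lists more than 1 start for Pmvk and Tnfrsf19, and the entry shown is one that holds the marked letters; another entry of each gene holds none of them.
Hmgcs1 (chr13:119690101-119690350, plus strand): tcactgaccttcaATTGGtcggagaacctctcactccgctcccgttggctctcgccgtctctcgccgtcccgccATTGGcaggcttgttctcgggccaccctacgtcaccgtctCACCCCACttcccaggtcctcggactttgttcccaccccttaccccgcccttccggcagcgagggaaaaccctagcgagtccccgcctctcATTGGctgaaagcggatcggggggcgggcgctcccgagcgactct
Cyp51 (chr5:4104698-4104947, minus strand): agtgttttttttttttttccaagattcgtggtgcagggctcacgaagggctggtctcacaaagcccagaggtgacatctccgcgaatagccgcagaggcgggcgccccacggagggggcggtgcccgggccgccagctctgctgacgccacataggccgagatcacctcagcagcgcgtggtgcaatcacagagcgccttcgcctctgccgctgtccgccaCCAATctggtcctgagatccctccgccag
Lss (chr10:76531355-76531604, plus strand): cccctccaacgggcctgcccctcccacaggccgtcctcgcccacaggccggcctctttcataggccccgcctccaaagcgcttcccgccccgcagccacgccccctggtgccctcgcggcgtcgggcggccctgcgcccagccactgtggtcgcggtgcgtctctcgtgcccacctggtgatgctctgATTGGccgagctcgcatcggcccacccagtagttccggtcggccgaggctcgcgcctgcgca
Pmvk (chr3:89454291-89454540, plus strand): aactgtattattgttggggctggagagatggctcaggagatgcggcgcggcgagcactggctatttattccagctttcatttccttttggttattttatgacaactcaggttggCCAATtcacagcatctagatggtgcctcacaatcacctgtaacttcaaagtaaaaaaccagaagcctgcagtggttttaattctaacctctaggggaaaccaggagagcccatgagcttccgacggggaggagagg
Tnfrsf19 (chr14:61037988-61038237, minus strand): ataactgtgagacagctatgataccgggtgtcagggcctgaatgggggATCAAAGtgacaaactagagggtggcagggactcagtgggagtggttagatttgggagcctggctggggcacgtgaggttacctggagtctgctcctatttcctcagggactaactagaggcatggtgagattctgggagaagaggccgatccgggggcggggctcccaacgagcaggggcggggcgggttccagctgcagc
Promoter entries matched 14 of the 22 cholesterol genes, some with several starts. The CCAAT box stood in 14 of their 17 entries (82.4%), against 33.8% of all 32851 promoter entries, 37.9% of the entries of genes called higher and 29.3% of those of genes called lower. CACCCCAC stood in 1 of the 17 entries (5.88%, Hmgcs1) and in 2.58% of all entries. Its share was 12.5% in the Wnt feedback inhibitor list and 7.14% in the beta-catenin target list, both above that of the cholesterol genes. CTTTGAT stood in 3 of 28 entries of the beta-catenin target list (10.7%), those of Sp5 and of 1 start each of Mmp7 and Tnfrsf19. It stood in 3.21% of all entries, 3.31% of those of genes called higher and 1.74% of those of genes called lower. Sp5 and Mmp7 were too low to be tested, and the Axin2 entry held none of these letters in this window.

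**Figure D3:**
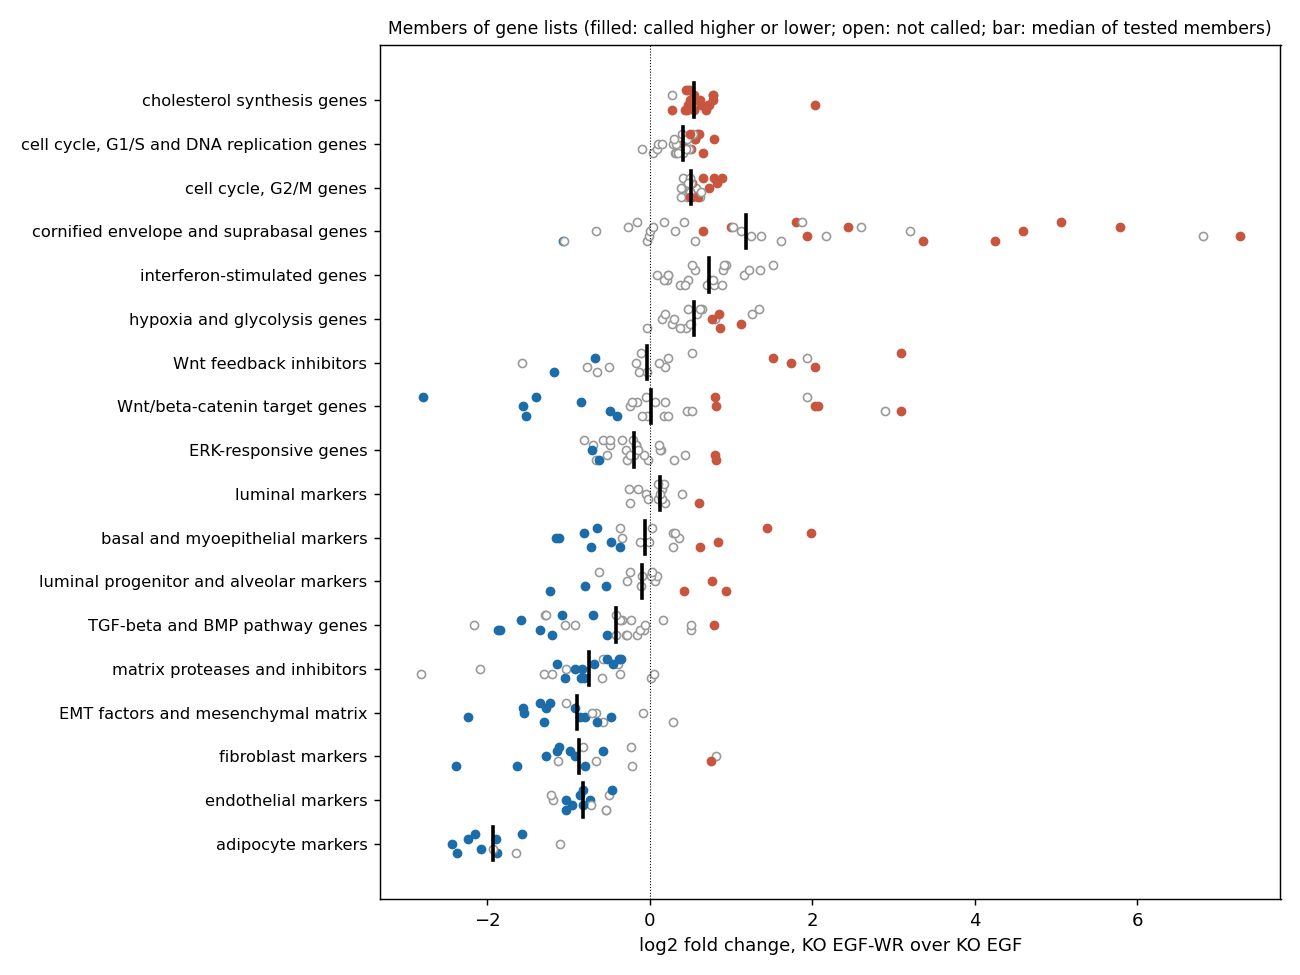
Log2 fold change of each tested member of 18 gene lists, KO EGF-WR over KO EGF (x axis), with the lists down the y axis. Filled points are called genes, open points are not called, and the black bar is the median of the tested members; cholesterol synthesis lies at 0.55 with all members above 0. The cornified list spreads to 7.26, and the mesenchymal, fibroblast, endothelial and adipocyte lists lie at -0.89, -0.87, -0.82 and -1.93. Pla2g2f, near the upper end of the cornified list, had no counts in KO EGF. It is only known to be at least 16.2-fold higher, against a floor of 3 counts over the group.

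Markers of fibroblasts, adipocytes and endothelium were lower with the added factors. The summed level of 16 fibroblast markers was 2329, 1460 and 1726 CPM in KO EGF-WR, against 4378, 1889 and 3189 CPM in KO EGF, lower in each pair, with the groups overlapping. Of 16 tested, 9 fell and 1 rose, Mgp, an inhibitor of calcification, with 254, 319 and 271 CPM in KO EGF-WR, against 187, 143 and 168 CPM in KO EGF (log2 0.76 ± 0.14 SE, adjusted p = 0.00338). Pdgfra, a receptor that defines fibroblasts, had 17.5, 10.2 and 14.5 CPM in KO EGF-WR, against 29.2, 22.2 and 26.5 CPM in KO EGF (log2 -0.91 ± 0.12 SE, adjusted p = 0.000266). Dpt, dermatopontin, had 6.22, 1.55 and 3.78 CPM in KO EGF-WR, against 13.7, 9.91 and 10.03 CPM in KO EGF (log2 -1.62 ± 0.27 SE, adjusted p = 0.00111). The median log2 was -0.87, and 6 of 10 calls held with each library left out.

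Adipocyte markers had the lowest median of the 38 lists. Their sum was 232, 433 and 77.1 CPM in KO EGF-WR, against 1287, 1205 and 386 CPM in KO EGF, lower in each pair, with the groups overlapping by 1 library. Fabp4, the fatty acid carrier of fat cells, had 70.7, 148 and 30.4 CPM in KO EGF-WR, against 447, 454 and 129.9 CPM in KO EGF (log2 -2.15 ± 0.42 SE, adjusted p = 0.0084). Plin1, the coat protein of fat droplets, had 11.2, 39.02 and 5.66 CPM in KO EGF-WR, against 93.6, 126 and 34.7 CPM in KO EGF (log2 -2.43 ± 0.44 SE, adjusted p = 0.00549). Adipoq, adiponectin, had 10.3, 29.6 and 5.75 CPM in KO EGF-WR, against 63.8, 71.97 and 19 CPM in KO EGF (log2 -1.87 ± 0.42 SE, adjusted p = 0.0163 and up to 0.072 with 1 library left out). All 11 tested members had values below 0, and 8 were called, 3 of them with each library left out (median log2 -1.93). Cd36, a fatty acid receptor of adipocytes and endothelium, had 15.9, 40.1 and 9.14 CPM in KO EGF-WR, against 115, 135 and 40.8 CPM in KO EGF (log2 -2.29 ± 0.46 SE, adjusted p = 0.00967 and up to 0.0509 with 1 library left out). Plin4, another coat protein of fat droplets (log2 -2.23 ± 0.51 SE, adjusted p = 0.0175 and up to 0.0812 with 1 library left out), and Adrb3, the beta 3 adrenergic receptor of fat cells (log2 -2.23 ± 0.65 SE, adjusted p = 0.0476 and up to 0.167 with 1 library left out), fell too.

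Endothelial markers summed to 268, 337 and 267 CPM in KO EGF-WR, against 612, 479.7 and 474 CPM in KO EGF, without overlap, and 8 of 14 fell, none of the calls holding with each library left out (median log2 -0.82). Pecam1, which joins endothelial cells, had 36.8, 45.5 and 41.1 CPM in KO EGF-WR, against 88.4, 73.2 and 60 CPM in KO EGF (log2 -0.85 ± 0.25 SE, adjusted p = 0.0494 and up to 0.191 with 1 library left out). Myeloid markers were near the detection limit, with sums of 25.9, 10.3 and 15.9 CPM in KO EGF-WR, against 69.9, 20.5 and 48.8 CPM in KO EGF. Of these markers 2 of 13 were called lower (Csf1r and Fcer1g, median log2 -1.54), beside 11.6% called over all genes. Cd163 had no counts in the 6 libraries. Lymphocyte markers summed to 4.11, 4.68 and 5.72 CPM in KO EGF-WR, against 10.96, 3.39 and 3.64 CPM in KO EGF, 4 of 14 were tested and none was called (median log2 -0.28), and Cd3d, Cd3e, Cd8a, Ms4a1, Cd2 and Nkg7 had no counts. How far fewer of these cells, rather than a change within a cell, went into the falls of the matrix genes that follow was not tested.

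**Figure D4:**
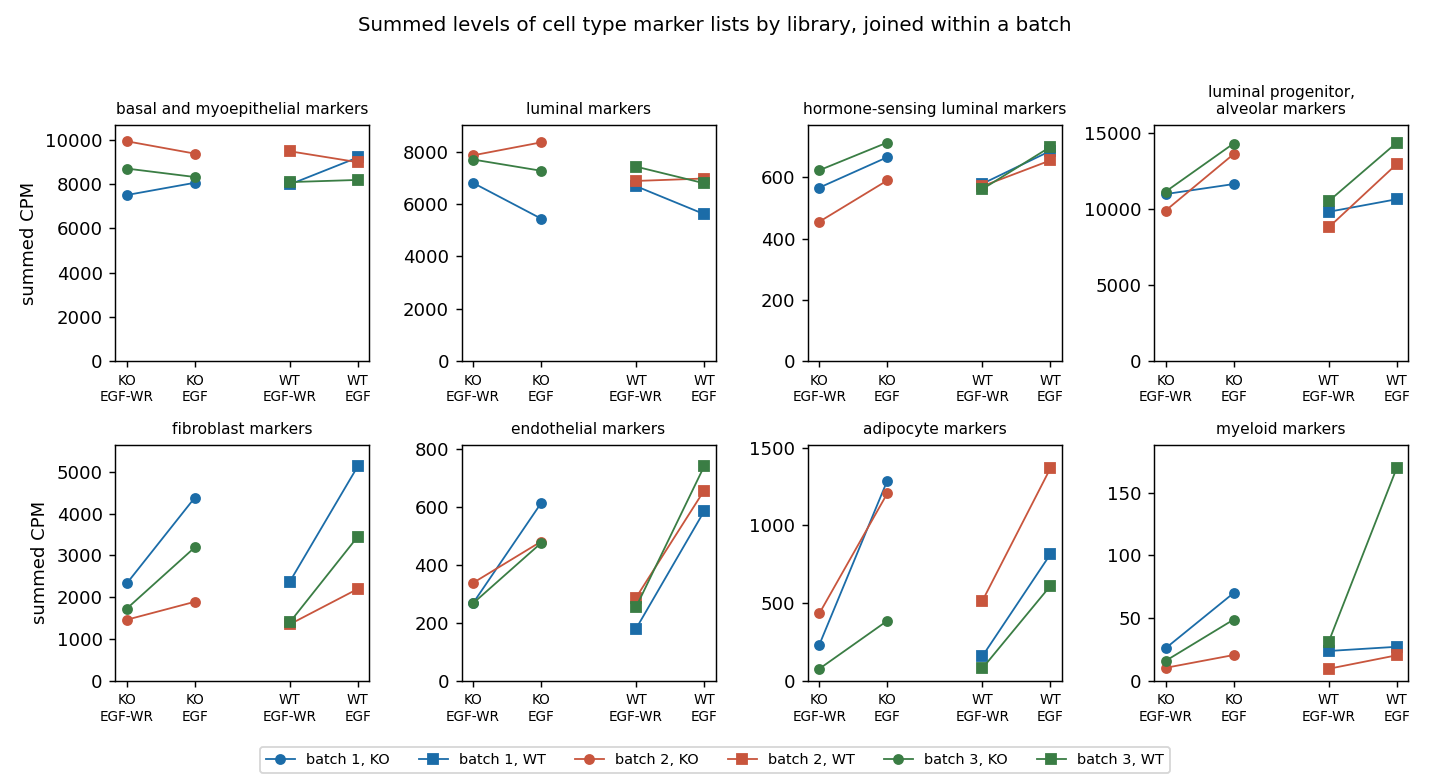
Summed level in CPM (y axis, from 0) of 8 cell type marker lists by library, with EGF-WR left of EGF in KO (circles) and WT (squares), joined within a batch. Fibroblast, endothelial, adipocyte, myeloid, hormone-sensing luminal and luminal progenitor sums are lower in EGF-WR in every pair of both genotypes. Adipocyte sums in KO are at 77.1 to 433 CPM against 386 to 1287 CPM. Basal and luminal sums go both ways.

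The mesenchymal list had the most decreases of the 38 lists. Of 18 genes, 12 fell and none rose (median log2 -0.89), and 6 of the 12 calls held with each library left out. Fn1, fibronectin (chromosome 1, 71585520 to 71653200), had 639.5, 293 and 276 CPM in KO EGF-WR, against 2582, 1269 and 1538 CPM in KO EGF, without overlap (log2 -2.23 ± 0.29 SE, adjusted p = 0.000918). Of the transcription factors that repress epithelial genes, Zeb2, Snai1, Zeb1 and Twist1 were called lower, and Snai2 was not called. The calls of Zeb1 and Twist1 were lost with 1 and 2 of the 6 libraries left out (edgeR adjusted p up to 0.0523 and 0.107). Zeb2 had 14.01, 10.4 and 10.3 CPM in KO EGF-WR, against 42.6, 28.6 and 30 CPM in KO EGF (log2 -1.54 ± 0.20 SE, adjusted p = 0.000307). Snai1, of the Snail family, had 15.4, 5.31 and 5.29 CPM in KO EGF-WR, against 35.96, 16.5 and 12.6 CPM in KO EGF (log2 -1.35 ± 0.20 SE, adjusted p = 0.000615). Cdh2, N-cadherin, had 22.6, 21.5 and 16.8 CPM in KO EGF-WR, against 53.7, 43.7 and 50.8 CPM in KO EGF, without overlap (log2 -1.30 ± 0.16 SE, adjusted p = 0.000192).

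Enzymes that cut and protect the matrix fell together: 11 of 22 proteases and inhibitors fell and none rose (median log2 -0.74), 4 of the calls holding with each library left out. Mmp2, a gelatinase of stromal cells, had 100.2, 46.95 and 57.1 CPM in KO EGF-WR, against 147, 83.9 and 124 CPM in KO EGF (log2 -0.85 ± 0.14 SE, adjusted p = 0.00141). Mmp14, the membrane protease that activates it, fell by 0.45 on the log2 scale (± 0.08 SE). Timp1, Timp2 and Timp3, their inhibitors, fell by 1.14, 0.38 and 0.80, so that the called proteases and inhibitors moved the same way. The calls of these inhibitors were lost with 3, 5 and 3 of the 6 libraries left out (edgeR adjusted p up to 0.0662, 0.207 and 0.0788). Serpine2, an inhibitor of serine proteases, had 296, 219.5 and 213 CPM in KO EGF-WR, against 473, 422 and 458 CPM in KO EGF (log2 -0.91 ± 0.17 SE, adjusted p = 0.00469).

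In the TGF-beta and BMP pathways, 8 of 28 genes fell and 1 rose (median log2 -0.41, 4 of 9 calls held with each library left out). Among ligands, Inhbb, an activin subunit, had 329.9, 232 and 303 CPM in KO EGF-WR, against 479, 374 and 544 CPM in KO EGF (log2 -0.69 ± 0.07 SE, adjusted p = 4.58e-05). Bmp2 had 35.5, 23.2 and 20.5 CPM in KO EGF-WR, against 59.3, 60.3 and 78.6 CPM in KO EGF (log2 -1.35 ± 0.30 SE, adjusted p = 0.013 and up to 0.0758 with 1 library left out). Tgfb2 rose, with 77.04, 154 and 106 CPM in KO EGF-WR, against 35.5, 104 and 63.1 CPM in KO EGF (log2 0.80 ± 0.15 SE, adjusted p = 0.00289). Ltbp2, a matrix protein of the latent TGF-beta binding family, had 438, 308 and 184 CPM in KO EGF-WR, against 1015, 1179 and 1000 CPM in KO EGF (log2 -1.86 ± 0.30 SE, adjusted p = 0.00295), clearly apart in the media. Id3, a direct BMP target, had 19.6, 94.6 and 11.4 CPM in KO EGF-WR, against 70.5, 266 and 60.8 CPM in KO EGF (log2 -1.83 ± 0.47 SE, adjusted p = 0.0296 and up to 0.134 with 1 library left out), with batch 2 high in both media. Id1, of the same family, was not called (log2 -1.27 ± 0.55 SE, adjusted p = 0.175).

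Insulin-like growth factor genes that were called fell, apart from Igfbp2, which rose as given above. Of 14 tested, 5 fell and 1 rose (median log2 -0.30, 3 of 6 calls held with each library left out). Igf1 had 3.06, 6.01 and 4.08 CPM in KO EGF-WR, against 11.04, 8.84 and 9.004 CPM in KO EGF (log2 -1.16 ± 0.26 SE, adjusted p = 0.00776). Igfbp3, the main carrier in blood, had 707, 748 and 402 CPM in KO EGF-WR, against 1109, 1215 and 965 CPM in KO EGF (log2 -0.89 ± 0.19 SE, adjusted p = 0.0116 and up to 0.0628 with 1 library left out). Of 28 chemokine and acute-phase genes, 5 fell and 2 rose, Ltf and Lbp (median log2 -0.40, 5 of 7 held); DESeq2 called 10 members lower and 4 higher. Cxcl5, a neutrophil chemokine, had 28.3, 27.1 and 45.4 CPM in KO EGF-WR, against 107, 81.7 and 168 CPM in KO EGF (log2 -1.83 ± 0.30 SE, adjusted p = 0.00274). Hp, haptoglobin, had 161, 127 and 124 CPM in KO EGF-WR, against 606, 265 and 482 CPM in KO EGF (log2 -1.65 ± 0.25 SE, adjusted p = 0.00205). Cxcl14, an epithelial chemokine, had 11.1, 6.196 and 3.32 CPM in KO EGF-WR, against 33.5, 39.5 and 23.9 CPM in KO EGF (log2 -2.35 ± 0.30 SE, adjusted p = 0.000347). None of these 3 genes overlapped between media.

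Gli1, the transcription factor that reports Hedgehog activity, had 7.75, 15.9 and 9.53 CPM in KO EGF-WR, against 5.03, 2.66 and 2.54 CPM in KO EGF (log2 1.79 ± 0.45 SE, adjusted p = 0.0231 and up to 0.101 with 1 library left out). In the Hedgehog and FGF list 3 of 19 rose and 1 fell (median log2 0.10); the calls of Fgfr1 and Fgfbp1 held with each library left out, that of Gli1 did not. Fgfr1, an FGF receptor of basal cells and stroma, had 799, 707 and 439 CPM in KO EGF-WR, against 1290, 1225 and 965 CPM in KO EGF (log2 -0.87 ± 0.12 SE, adjusted p = 0.000343). Fgfbp1, which releases FGFs from the matrix, had 19.6, 32.4 and 60.1 CPM in KO EGF-WR, against 8.98, 19.01 and 17.1 CPM in KO EGF (log2 1.26 ± 0.22 SE, adjusted p = 0.00227). Of 18 Notch pathway genes, Notch4 and Hey2 fell, both known from endothelium, and none rose (median log2 -0.25); neither call held with each library left out (log2 -1.06 ± 0.29 and -1.24 ± 0.36). These 2 calls are a share near the 11.6% called over all genes. With the 6 libraries of the contrast fitted alone, 6 Notch genes were called lower, and with DESeq2 4. Endothelial markers, whose sums are given above, were lower in the same libraries, and their part in both falls was not tested.

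Of 20 hypoxia and glycolysis genes, 4 rose and none fell (median log2 0.55). For the 4 called genes the KO EGF-WR library of batch 3 stood highest. Pdk1, which holds pyruvate out of mitochondria, had 101, 66.8 and 201 CPM in KO EGF-WR, against 46.4, 49.3 and 59.5 CPM in KO EGF (log2 1.13 ± 0.22 SE, adjusted p = 0.00594). Tpi1, a glycolytic isomerase, had 319.5, 234 and 729 CPM in KO EGF-WR, against 198, 199 and 262 CPM in KO EGF (log2 0.85 ± 0.24 SE, adjusted p = 0.0387 and up to 0.162 with 1 library left out). Pfkl and Pgk1 also rose (log2 0.77 ± 0.22 and 0.87 ± 0.25), the last with processed pseudogenes that may take its reads. The number of calls in this list ran from 1 to 11 with 1 library left out, and 1 of the 4 calls held every time; it was 1 with the 6 libraries of the contrast fitted alone and 7 with DESeq2.

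Of 21 amino acid stress and transport genes, 4 rose and 2 fell (median log2 -0.02), and 5 fell with the 6 libraries of the contrast fitted alone. Psat1, an enzyme of serine synthesis, had 109, 154 and 213 CPM in KO EGF-WR, against 68.1, 88.3 and 109 CPM in KO EGF, the only one of the 6 calls that held with each library left out (log2 0.82 ± 0.10 SE, adjusted p = 0.000153). Slc7a11, the cystine transporter, fell (log2 -0.93 ± 0.23). Of 16 p53 targets 4 fell and none rose (median log2 -0.20), Gdf15 with 2.802, 4.91 and 2.86 CPM in KO EGF-WR, against 6.26, 11.6 and 7.904 CPM in KO EGF (log2 -1.28 ± 0.23 SE, adjusted p = 0.00236) being the 1 call that held. Of 17 dissociation and heat-shock genes only the mitochondrial chaperone genes Hspd1 and Hspe1 were called, both higher (log2 0.43 ± 0.08 and 0.37 ± 0.08, median of the list -0.05), and the immediate early genes of the list were not. The share called in this list is near the 11.6% called over all genes.

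Interferon-stimulated genes had values above 0 in all 22 members, with a median log2 of 0.73, and none was called. Oas2, an antiviral RNA sensor, had 4.403, 8.26 and 36.9 CPM in KO EGF-WR, against 1.65, 1.54 and 14.98 CPM in KO EGF (log2 1.52 ± 0.66 SE, adjusted p = 0.17). Isg15 had 15.03, 29.4 and 70.6 CPM in KO EGF-WR, against 8.57, 14.03 and 45.1 CPM in KO EGF (log2 0.80 ± 0.41 SE, adjusted p = 0.254). Batch 3 was high in both media for these genes, and within each batch KO EGF-WR stood above KO EGF for both. Of 14 cartilage-type matrix genes, 2 fell and none rose (median log2 -0.32): Col9a2, a collagen IX chain (log2 -0.86 ± 0.22 SE, adjusted p = 0.0278 and up to 0.129 with 1 library left out), and Comp. The share called in the cartilage list is near the 11.6% called over all genes. Comp, a cartilage matrix protein, had 1.56, 1.25 and 0.888 CPM in KO EGF-WR, against 7.13, 7.17 and 9.62 CPM in KO EGF (log2 -2.77 ± 0.45 SE, adjusted p = 0.00102).

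Among genes on no list, the largest increases over 4 CPM were, beside Krt79, in BC100530, Pik3ap1, Aqp9, Aqp3, Duoxa1, Sema3b and Tmc5. BC100530 belongs to a cluster of near-identical stefin genes that may share reads and had 3.86, 5.13 and 13.9 CPM in KO EGF-WR, against 0.906, 1.59 and 0.859 CPM in KO EGF (log2 2.72 ± 0.50 SE, adjusted p = 0.00403). Pik3ap1, an adaptor that links receptors to PI3 kinase, had 8.26, 9.04 and 24.5 CPM in KO EGF-WR, against 2.02, 1.93 and 2.96 CPM in KO EGF (log2 2.46 ± 0.23 SE, adjusted p = 2.12e-05). The aquaglyceroporin genes Aqp3 and Aqp9 rose. Aqp3, a channel for water and glycerol in basal keratinocytes, had 14.1, 41.5 and 46.2 CPM in KO EGF-WR, against 4.28, 10 and 8.45 CPM in KO EGF (log2 2.11 ± 0.34 SE, adjusted p = 0.00268). Aqp9 had 6.33, 13.1 and 23.3 CPM in KO EGF-WR, against 1.61, 2.62 and 3.23 CPM in KO EGF (log2 2.43 ± 0.28 SE, adjusted p = 9.7e-05). Duoxa1, the maturation factor of a hydrogen peroxide producing oxidase, rose (log2 2.04 ± 0.32), as did the semaphorin gene Sema3b (2.01 ± 0.41) and the transmembrane channel-like gene Tmc5 (1.96 ± 0.27).

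The largest decreases on no list were in Csmd1, Smoc1, Masp1, Rtn1 and Olfm4. Csmd1, a large membrane protein with complement control domains, had 3.35, 1.84 and 2.04 CPM in KO EGF-WR, against 15.7, 20.1 and 18.8 CPM in KO EGF, the largest fall that met the rule (log2 -2.96 ± 0.30 SE, adjusted p = 3.41e-05). Smoc1, a secreted calcium-binding protein of basement membranes, had 209, 29.3 and 29.6 CPM in KO EGF-WR, against 683, 309 and 338 CPM in KO EGF (log2 -2.80 ± 0.52 SE, adjusted p = 0.00646), with batch 1 high in both media. Masp1, a protease of the lectin complement pathway, had 7.496, 8.59 and 5.98 CPM in KO EGF-WR, against 32.7, 38.9 and 50.8 CPM in KO EGF (log2 -2.50 ± 0.30 SE, adjusted p = 0.000223). Rtn1, a reticulon of the endoplasmic reticulum, fell by 2.37 on the log2 scale (± 0.35 SE). Olfm4, olfactomedin 4, had 2.15, 1.84 and 1.28 CPM in KO EGF-WR, against 7.13, 6.39 and 10.6 CPM in KO EGF. Its call was lost with any of the 6 libraries left out (log2 -2.12 ± 0.58 SE, adjusted p = 0.0316 and up to 0.15 with 1 library left out).

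Among abundant genes on no list, those that rose were Scd2, a fatty acid desaturase, Tkt, an enzyme of the pentose phosphate pathway, Fads1, another desaturase, Xbp1 and the ribosomal protein gene Rpl32. Tkt (log2 0.52 ± 0.07 SE, adjusted p = 0.000379), Fads1 (log2 0.57 ± 0.10 SE, adjusted p = 0.00179) and Rpl32 (log2 0.54 ± 0.07 SE, adjusted p = 0.000192) had small errors. The call of Scd2 was lost with 4 of the 6 libraries left out (log2 0.53 ± 0.14 SE, adjusted p = 0.0228 and up to 0.13 with 1 library left out). Xbp1, the factor that expands the secretory pathway, had 702, 479 and 739 CPM in KO EGF-WR, against 382, 329 and 327 CPM in KO EGF (log2 0.87 ± 0.13 SE, adjusted p = 0.000585), without overlap. Those that fell were Clu, Bgn, Cx3cl1 and Sptan1, beside Postn, Fn1, Mfge8 and Aldh1a3 from the lists. Clu, the secreted chaperone clusterin, had 1655, 1020 and 1273 CPM in KO EGF-WR, against 2577, 2206 and 2991 CPM in KO EGF (log2 -0.99 ± 0.13 SE, adjusted p = 0.000355). Bgn, the matrix proteoglycan biglycan (log2 -0.67 ± 0.12 SE, adjusted p = 0.00286), and Sptan1, a spectrin of the membrane skeleton (log2 -0.56 ± 0.13 SE, adjusted p = 0.0103 and up to 0.0514 with 1 library left out), fell with overlapping groups. Cx3cl1, the membrane-bound chemokine fractalkine, had 1074, 656 and 589.9 CPM in KO EGF-WR, against 1812, 1408 and 1647 CPM in KO EGF (log2 -1.10 ± 0.16 SE, adjusted p = 0.00111). Postn, periostin, had 1711, 1202 and 677 CPM in KO EGF-WR, against 2362, 2058 and 1892 CPM in KO EGF (log2 -0.92 ± 0.20 SE, adjusted p = 0.0127 and up to 0.0669 with 1 library left out). For the last, the KO EGF-WR values spread more than 2-fold, and the groups did not overlap.

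In WT organoids the same change of medium moved nearly all of these genes the same way. It called 2672 genes in WT (15.6%), of which 1561 were also called in KO, every one in the same direction; these are 78.4% of the KO calls and 58.4% of the WT calls. Of the 1991 genes called in KO, 1981 (99.5%) had the same sign in WT. Over the 1795 of them with at least 4 CPM on average over the KO and WT libraries of both media, the log2 values of the genotypes correlated with Pearson r = 0.97. This is a description across genes that share batches and 1 fit. Axin2 had 8.17, 24.1 and 21.7 CPM in WT EGF-WR, against 4.48, 5.05 and 4.45 CPM in WT EGF (log2 1.74 ± 0.41 SE). Fn1 had 727, 325 and 230.4 CPM in WT EGF-WR, against 2465, 1534 and 1535 CPM in WT EGF (log2 -2.27 ± 0.29 SE). Without the block 369 genes were called in WT, and 653 without batch 3. Leaving out WT EGF 3 left 1191 calls, WT EGF-WR 2 left 1569 and WT EGF-WR 3 left 1620.

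**Figure D5:**
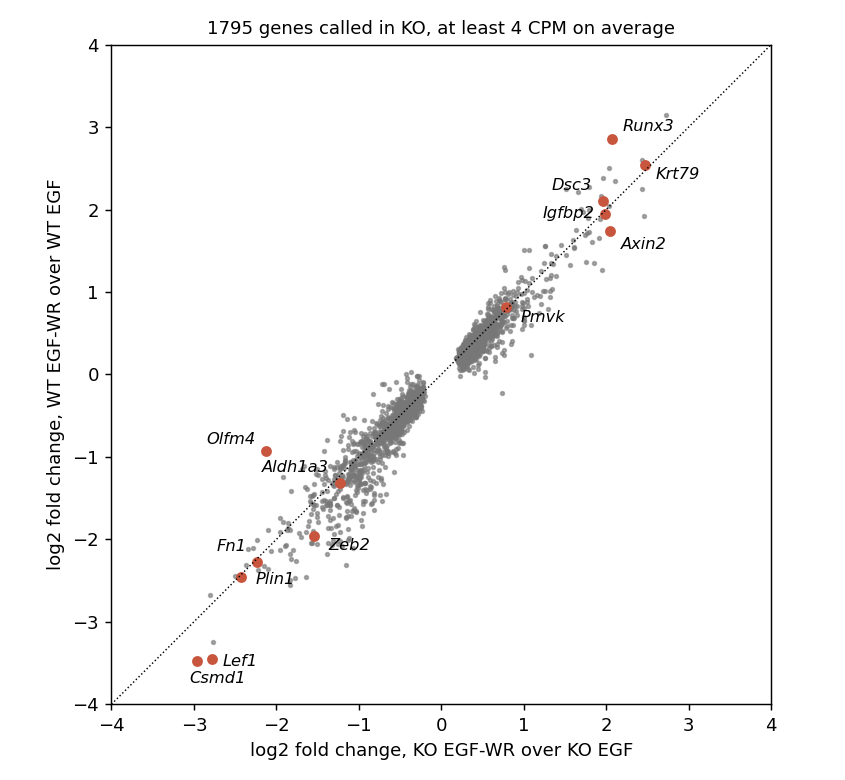
Log2 fold change of EGF-WR over EGF in KO (x axis) and in WT (y axis), 1 point per gene, with the diagonal dotted. The genes are those called in KO with at least 4 CPM on average over the KO EGF-WR and KO EGF libraries. Named genes are in red; Axin2 lies at 2.04 in KO and 1.74 in WT, Fn1 at -2.23 and -2.27, and Olfm4 at -2.12 and -0.93.

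The difference between the responses was tested directly as a genotype by medium term, KO response minus WT response. No gene was called by edgeR (0% of 17092, smallest adjusted p 1) or by DESeq2 (0 genes), with 306 genes (1.79%) at an unadjusted p under 0.05 in edgeR and 415 in DESeq2. A p that misses the threshold does not show that the responses are alike. The smallest unadjusted p values belonged to Abi3bp, Serpinb9, Prrx1, Inpp4b, Emcn, Ddx51, Sod3 and Serpinb1a. For Abi3bp, a matrix protein, the log2 response was -0.76 ± 0.30 SE in KO and -2.42 in WT, a difference of 1.66 ± 0.43 SE (unadjusted p = 0.00152). Prrx1, a mesenchymal transcription factor, fell in both genotypes (log2 -0.84 ± 0.16 SE in KO, -1.56 in WT, difference 0.72 ± 0.22 SE, unadjusted p = 0.00451). Sod3, extracellular superoxide dismutase, and Emcn, an endothelial glycoprotein, had positive differences too (0.80 ± 0.26 and 1.15 ± 0.36 SE).

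The median log2 of the cholesterol list was 0.55 in KO and 0.53 in WT, where 16 members rose. For the cornified list it was 1.18 in KO and 1.62 in WT, with 14 members higher in WT, and for the mesenchymal list -0.89 in KO and -1.28 in WT, with 16 lower in WT. In KO 8 of 14 endothelial markers fell, with a median log2 of -0.82, and in WT 14 of 14, with a median of -1.59; none of these genes was called for the difference. In the authors' deposited table, the KO comparison had 1195 genes higher and 1433 lower of 16194 with an adjusted p, which includes 1988 of the 1991 genes called here (99.8%). Its genotype by medium term had 36 genes, each at an adjusted p of 0.0419, none of which had enough counts to be tested here.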

How the data were processed

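RNA was sequenced from 18 libraries (6 groups of 3) made from 2 genotypes and 3 media, as single-end reads per the labels. The deposited values are raw counts per gene, aligned to GRCm38 with STAR, per the submitters' processing notes, which also name DESeq2; no source used here gives strand or the handling of shared reads. The authors' deposited table holds their own log2 fold changes and adjusted p-values. From the counts, edgeR 4.0.16 (R 4.3.3) with TMM factors and filterByExpr (minimum count 10, minimum total 15) tested 17092 genes in 1 quasi-likelihood fit of all 18 libraries, with 1 mean per group and the batch as a block (10 residual degrees of freedom), and Benjamini-Hochberg adjustment over all tested genes; a gene was called under 0.05. CPM use the TMM library sizes, and n is 3 libraries per group. The labels give each library a batch equal to its number, and same-numbered libraries deviated together (r 0.443, 0.345 and 0.352). Crossed pairs gave -0.285 to -0.108. Deviations from a mean of 3 libraries sum to 0, which pushes crossed values below 0 when same-numbered ones are positive, so they add no separate support. The p-values rest on the spread left among the 18 libraries after group and batch differences are taken out. The labels name biological replicates without saying how animals fall to batches, so whether this is a spread between animals is not known. Exact counting intervals and the floor of 3 counts cover counting error only.

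Named genes were the 14 largest called changes in each direction with at least 4 CPM and the same sign in all 3 pairs, the 8 most abundant called genes in each direction with a log2 of at least 0.5 in size, the 8 smallest p for the genotype difference, Rasgrp1 and members of 38 lists. The comparison, its members and the lists were chosen with earlier results of these data known. Some genes that met these rules are not reported here by name. Promoter entries came from RefSeq (GRCm38.p6). The fit was tested on simulated data with known changes. Alternatives were no block, the libraries of the contrast alone, RLE size factors, DESeq2 1.42.0 with the batch term, no filter, a stricter filter (1 CPM in 3 libraries), and leaving out each library or batch.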

Additional observations from a re-analysis of the deposited data

How the results depend on the processing

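The number of calls moved most with the block and with batch 3. Without the replicate block 115 genes were called for KO EGF-WR against KO EGF (1991 with it), 369 for WT EGF-WR against WT EGF (2672 with it), and 0 for the difference of the responses; the cause was not tested. Leaving out 1 library or 1 batch gave 366 to 1472 calls in KO and 653 to 2700 in WT, the lowest without batch 3 in both, and 0 for the difference throughout. RLE size factors gave 1986 calls in KO, DESeq2 2650, no filter 1620, a stricter filter 2115 and the 6 libraries of the contrast alone 2066. No called gene named above changed sign under any setting tried. Among uncalled genes (log2), with 1 library or 1 batch left out Etv5 ran from -0.039 (without KO EGF 2) to 0.317, Krt8 from -0.050 (without batch 1; -0.031 without KO EGF 1) to 0.300, and Lgr5 from -0.309 to 0.057 (without batch 3; 0.010 without KO EGF-WR 1, 0.015 without KO EGF-WR 3). Rasgrp1 ran from -4.82 to 0.43 (without batch 2; 0.16 without KO EGF 2). Depth limits genes under about 1 CPM, such as Rasgrp1 and Ascl2, where a few reads set the value.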

Other observations

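A further 3 gene lists were put together after the values had been seen, so that their counts are descriptions only. Cytosolic ribosomal protein genes had 41 of 78 tested members called higher in KO EGF-WR than in KO EGF and none lower, with a median log2 of 0.39, and 36 of the calls held with each of the 6 libraries left out in turn; without the block 1 held. Many of these genes have processed pseudogenes that may share their reads. Collagen chain genes had 17 of 41 members called lower and none higher, with a median log2 of -0.79, and 12 of the calls held. The basement membrane chain genes Col4a1 and Col4a2, which lie head to head, fell by similar amounts (log2 -1.06 ± 0.14 and -1.04 ± 0.15 SE, edgeR adjusted p = 0.000544 and 0.000648). Col4a1 had 577, 383 and 340.2 CPM in KO EGF-WR, against 1276, 706 and 749.5 CPM in KO EGF.

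Of fatty acid synthesis and desaturation genes, 8 of 17 were called higher and 1 lower, with a median log2 of 0.42, and 4 of the 9 calls held. Thrsp, a regulator of fat synthesis, had 14.9, 7.49 and 18.8 CPM in KO EGF-WR, against 4.98, 5.02 and 3.06 CPM in KO EGF (log2 1.63 ± 0.39 SE, edgeR adjusted p = 0.013). Fads3, a desaturase family member, was the gene that fell (log2 -0.71 ± 0.11 SE, edgeR adjusted p = 0.000712).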
